A study of Mus musculus with 5 samples.

Results

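Chromosome 6 of the mouse genome carried 3561 of the 54793 peaks in the 3 deposited lists: 1754 of 20994 peaks of H2AK119ub in DDX5 knockout cells, 1239 of 24235 peaks of H2AK119ub in wild-type cells, and 568 of 9564 peaks of RYBP in wild-type cells. Every peak that the lists place on the chromosome was taken, with no other choice. The chromosome was itself chosen by measured values, the number and length of its H2AK119ub peaks in the 2 genotypes, so its balance between them is described here and not tested. Both genotypes were mouse embryonic stem cells of the line MPI-II, kept on feeder cells in fetal bovine serum with LIF and with inhibitors of MEK (PD0325901) and GSK3 (CH99021). The knockout was 1 monoclonal line, labelled DDX5-/-, in which the gene for this DEAD-box RNA helicase was targeted in exon 2 by a Cas9 nickase with paired guides, followed by selection in G418. The wild type was the parental MPI-II line. Chromatin immunoprecipitation and sequencing (ChIP-seq) with an antibody to H2AK119ub (D27C4) or to RYBP (sold under its other name, DEDAF) gave 1 library for each group, which leaves the differences without a replicate check, and p-values are not given. The lists hold positions but no heights and no read counts, so read depth is unknown, the identity of the cells cannot be checked by marker expression, and the input library of each genotype, which would show the read level of each chromosome, was not analysed here.

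H2AK119ub is ubiquitin attached to histone H2A by Polycomb repressive complex 1 (PRC1), a group of proteins that keeps developmental genes silent in embryonic stem cells. RYBP is a subunit of the variant forms of PRC1, and it binds both the catalytic subunit and ubiquitylated H2A. These complexes gather at CpG islands, stretches of DNA rich in the dinucleotide CpG that lie at many promoters. In the cells used here the mark is therefore best known from clusters of developmental regulators such as the Hoxa genes, which lie on chromosome 6.

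Genes marked in the knockout, in the wild type or in both recur below, and promoters of each kind are shown first so that the sequence under the peaks can be seen. Each is 300 bp long, from 250 bp before the start site to 50 bp from it onwards, is read 5′ to 3′ on the plus strand, and comes from RefSeq on GRCm38.p6 (coordinates as in mm10). CpG dinucleotides are in capitals. Tac1, the gene for the precursor of substance P, stands for knockout alone (chr6:7554811-7555110, 22 CpG, covered over 300 bp by H2AK119ub in the knockout, over 0 bp in the wild type and over 300 bp by RYBP). Mgll, the gene for monoacylglycerol lipase, carries the mark in both genotypes near its ends but over this promoter in the knockout alone (chr6:88724162-88724461, 32 CpG, with RYBP over all 300 bp). Noto, a homeobox gene of the notochord, stands for wild type alone (chr6:85423636-85423935, 6 CpG, no RYBP). Gata2, a regulator of blood stem cells, stands for both genotypes (chr6:88193641-88193940, 32 CpG, covered over 300 bp in all 3 libraries). These are single cases. Promoters of the chromosome under a knockout peak alone had a median of 13.5 CpG, and 37 of 66 carried RYBP. Those under a wild-type peak alone had a median of 13 CpG, and 13 of 28 carried RYBP.
Tac1: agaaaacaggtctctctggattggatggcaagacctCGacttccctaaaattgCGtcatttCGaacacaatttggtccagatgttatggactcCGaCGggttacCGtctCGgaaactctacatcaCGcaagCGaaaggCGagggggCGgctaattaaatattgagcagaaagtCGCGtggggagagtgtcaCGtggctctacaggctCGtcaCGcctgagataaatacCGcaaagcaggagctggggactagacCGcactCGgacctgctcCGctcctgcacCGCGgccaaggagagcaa
Mgll: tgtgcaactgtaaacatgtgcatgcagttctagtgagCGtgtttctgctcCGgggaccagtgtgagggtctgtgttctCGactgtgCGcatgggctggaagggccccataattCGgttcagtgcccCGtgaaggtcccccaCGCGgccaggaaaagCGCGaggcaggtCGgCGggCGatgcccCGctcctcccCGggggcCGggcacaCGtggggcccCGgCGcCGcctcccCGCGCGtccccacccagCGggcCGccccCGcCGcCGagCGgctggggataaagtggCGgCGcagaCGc
Noto: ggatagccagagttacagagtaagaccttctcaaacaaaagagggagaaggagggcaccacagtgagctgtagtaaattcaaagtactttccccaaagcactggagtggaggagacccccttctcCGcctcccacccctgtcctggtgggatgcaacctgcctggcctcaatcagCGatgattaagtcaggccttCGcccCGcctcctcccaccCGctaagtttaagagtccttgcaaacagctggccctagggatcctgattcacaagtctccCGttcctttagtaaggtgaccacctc
Gata2: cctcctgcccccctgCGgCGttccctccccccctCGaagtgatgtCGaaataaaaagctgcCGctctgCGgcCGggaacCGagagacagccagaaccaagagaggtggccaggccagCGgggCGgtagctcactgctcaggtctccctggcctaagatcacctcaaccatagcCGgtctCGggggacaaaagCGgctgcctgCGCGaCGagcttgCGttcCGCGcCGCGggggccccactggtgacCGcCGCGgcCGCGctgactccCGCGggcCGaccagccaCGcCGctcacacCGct

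H2AK119ub covered 3.30 Mb of chromosome 6 in the knockout library, against 2.43 Mb in the wild-type library, a ratio of 1.36. Over the rest of the genome the mark covered 27.3 Mb in the knockout and 43.4 Mb in the wild type, a ratio of 0.63. Chromosome 6 thus held 10.8% of all base pairs covered by the mark in the knockout and 5.30% in the wild type, and it held 6.60% of those covered by RYBP. Of the base pairs covered on chromosome 6, 1.65 Mb were shared by the libraries, 1.65 Mb were covered in the knockout alone and 0.777 Mb in the wild type alone. In the rest of the genome, 7.82 Mb were covered in the knockout alone and 24.0 Mb in the wild type alone.

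**Figure D1:**
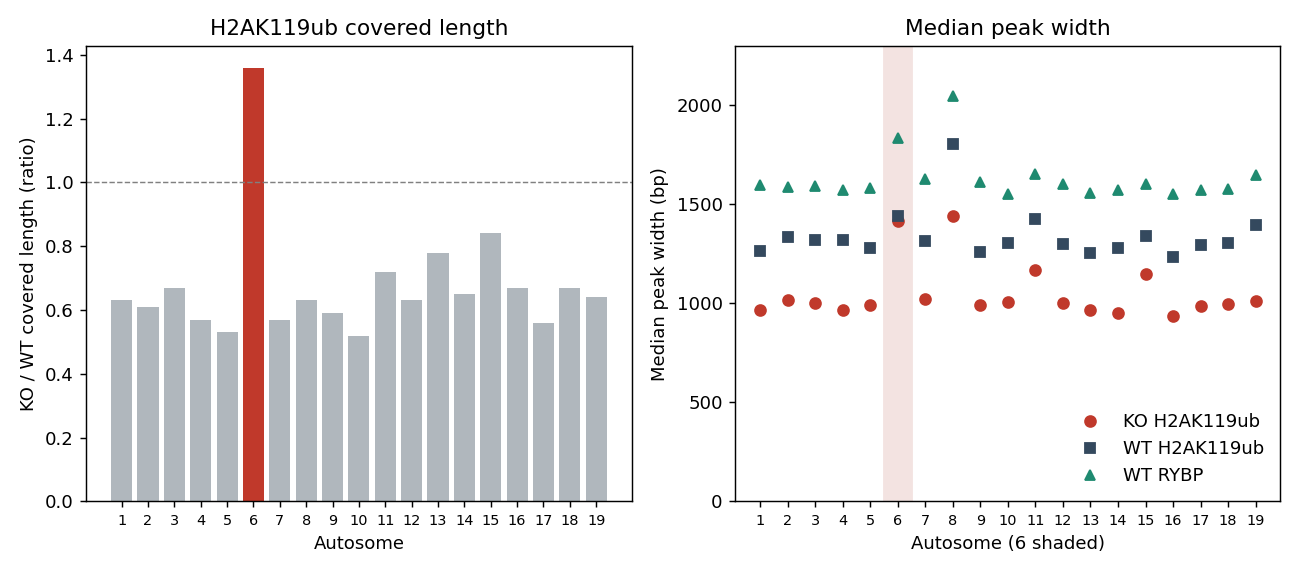
Left, H2AK119ub covered length in the knockout (KO) divided by that in the wild type (WT) for each autosome, with chromosome 6 in red and a dashed line at equal length. Right, the median peak width in bp of each list by autosome. Chromosome 6 is at 1.36 and the other 18 autosomes lie between 0.52 and 0.84, while its median widths are exceeded on 1 autosome, chromosome 8, in each list.

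Peaks on chromosome 6 were also wider than on most chromosomes, in all 3 libraries. The median width was 1417.5 bp for H2AK119ub in the knockout and 1439 bp in the wild type, and 1834 bp for RYBP in the wild type. On the other 18 autosomes these medians ran from 935 to 1443 bp in the knockout, from 1234 to 1802.5 bp in the wild type and from 1550 to 2046 bp for RYBP, and 1 autosome, chromosome 8, lay above chromosome 6 in each list. RYBP was profiled in wild-type cells alone, so its wide peaks on this chromosome were present without the knockout. Whether what widens peaks there bears on the ratio between genotypes was not tested.

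Along the chromosome, the excess in the knockout was broad but uneven. Of 15 windows of 10 Mb, 11 held at least 20 wild-type peaks, and the mark covered more sequence in the knockout in 10 of those 11. Over the genome 13 of 166 such windows did, 7.83%, a count that includes those of chromosome 6. The ratio was lowest from 20 to 30 Mb, at 0.98, with 132 kb covered in the knockout and 135 kb in the wild type. Among the 11 it was next lowest from 120 to 130 Mb, at 1.08, with 439 kb and 406 kb. It was highest from 100 to 110 Mb, at 3.45, with 111 kb in the knockout and 32.3 kb in the wild type. The largest gain in length was from 110 to 120 Mb, where 703 kb were covered in the knockout and 428 kb in the wild type, a ratio of 1.64. Leaving out any 1 of the 15 windows kept the ratio of the chromosome between 1.30 and 1.41.

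**Figure D2:**
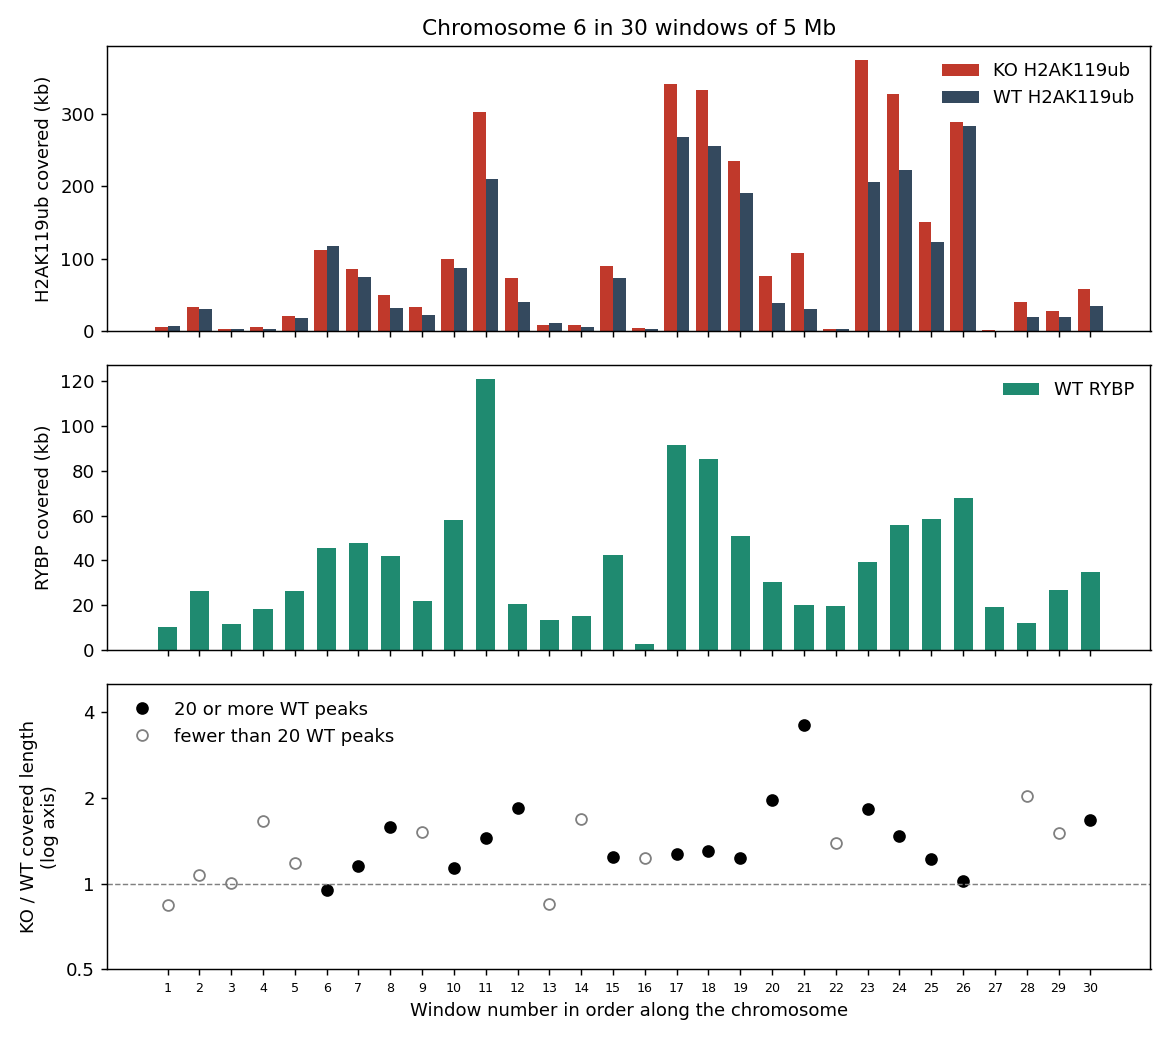
Chromosome 6 in 30 windows of 5 Mb, numbered in order. Top, kb covered by H2AK119ub in the knockout (red, left bar) and in the wild type (dark, right bar). Middle, kb covered by RYBP in the wild type. Bottom, the ratio of knockout to wild-type covered length on a log axis, with open points for windows of fewer than 20 wild-type peaks. Of the 17 windows with 20 or more, 16 lie above the dashed line of equal length and the highest is at 3.61.

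At a finer scale, 165 of 300 bins of 0.5 Mb carried the mark in at least 1 library, and 126 of them had more covered length in the knockout against 39 with more in the wild type. The 10 bins with the largest gain together held 48.5% of the net difference of 873 kb. The first of them, from 114 to 114.5 Mb, had 196 kb in the knockout and 118 kb in the wild type, a stretch that includes Hrh1, a histamine receptor gene, and the end of the calcium pump gene Atp2b2. The bin that starts at 118.5 Mb, which includes part of the calcium channel gene Cacna1c, had 71.6 kb in the knockout and 27.0 kb in the wild type. The bin from 84 to 84.5 Mb, which includes the muscle gene Dysf, had 92.2 kb and 49.4 kb. The largest deficit was from 128 to 128.5 Mb, with 7 peaks in the knockout, 16 peaks in the wild type and a ratio of covered length of 0.42. Its wild-type peaks lay before 128145463, on the side of Tspan9, which ends at 128143578. The part beyond, with Tead4, Tulp3 and Foxm1, held no wild-type peak. The bin of Nanog and Dppa3, from 122.5 to 123 Mb, also had less, at 3.17 kb in the knockout and 8.51 kb in the wild type. These bins were picked for their differences, after the values had been seen.

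The stretch next to Rybp had many added peaks and few protein-coding genes. Between 100 and 100.6 Mb, the knockout had 52 peaks and the wild type 17, covering 87023 bp and 24263 bp, and 38 of the knockout peaks overlapped no wild-type peak. These knockout peaks were 710 to 4193 bp wide with a median of 1560 bp, and RYBP had 7 peaks there. Rybp and Shq1 were the only protein-coding genes of the annotation used that reach into the stretch. Rybp itself (100228565 to 100287358) had 1 peak in each library just beyond its higher coordinate: 2329 bp wide in the knockout, 1300 bp in the wild type and 2115 bp for RYBP. Of the gaps between wild-type peaks, the one with the most knockout peaks ran over 3699 kb, from 136924625 to 140623664. It held 15 knockout peaks with 15121 bp in all and 3 RYBP peaks, and genes such as Ptpro, Mgst1 and Lmo3. Longer gaps of 7537, 7047 and 5941 kb held 3, 3 and 0 knockout peaks.

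The ratio was higher away from genes than at their ends. Peaks centred within 2 kb of a gene start or end covered 1061 kb in the knockout and 864 kb in the wild type, a ratio of 1.23. Peaks centred inside genes covered 1621 kb and 1179 kb, a ratio of 1.37, and peaks between genes covered 622 kb and 387 kb, a ratio of 1.61. The rest of the genome had the other order, with ratios of 0.66 at gene ends, 0.61 inside genes and 0.59 between genes. Of the knockout peaks that overlapped no wild-type peak, 22.6% lay at gene ends (Wilson interval at 95%, 20.0% to 25.5%), against 34.2% (31.1% to 37.5%) of the knockout peaks that did. Such intervals cover counting error within a library and no spread between cultures.

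A small majority of the chromosome's knockout peaks had no counterpart in the wild type. Of the 1754 knockout peaks, 910 overlapped no wild-type peak by even 1 bp, 51.9%, where the genome as a whole had 33.5%. Of the 1239 wild-type peaks, 401 overlapped no knockout peak, 32.4%, where the genome had 51.1%. Peaks present in the knockout alone lay a median of 6.10 kb from the nearest wild-type peak, with quartiles of 1.83 and 22.5 kb, and 412 of 910 lay within 5 kb of one. Peaks present in the wild type alone lay a median of 3.43 kb from the nearest knockout peak, and 228 of 401 lay within 5 kb.

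Peaks of 1 genotype alone were narrow, and wide domains were shared. An overlap of 1 bp counted as sharing, and a wider peak meets that rule more easily, so this contrast is in part built in. Peaks found in the knockout alone had a median width of 1182.5 bp, against 1894.5 bp for knockout peaks shared with the wild type. Those found in the wild type alone had a median of 1146 bp, against 1706.5 bp for wild-type peaks shared with the knockout. At 5 kb or wider there were 72 knockout peaks and 61 wild-type peaks, and all but 1 of each overlapped a peak of the other genotype. In the rest of the genome the corresponding numbers were 400 in the knockout and 1036 in the wild type. Across chromosome 6, 490 peaks paired uniquely between the genotypes, and 295 of them were wider in the knockout, 60.2% (55.8% to 64.4%), where 24.7% of such pairs over the genome were. Within pairs, knockout width divided by wild-type width had a median of 1.11, with quartiles of 0.87 and 1.43, and the other 18 autosomes had medians between 0.71 and 0.89.

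**Figure D3:**
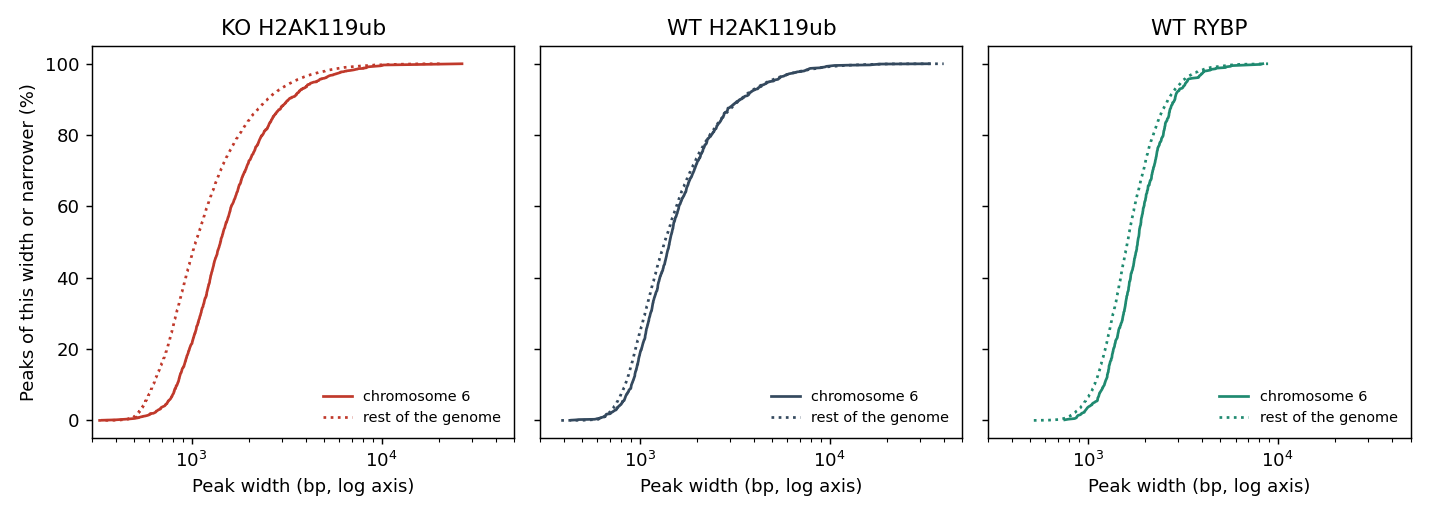
Cumulative percentage of peaks by width in bp on a log axis, for chromosome 6 (solid) and the rest of the genome (dotted), in each list. The knockout curve of chromosome 6 lies to the right of the rest, with a median of 1417.5 against 1052 bp. The wild-type H2AK119ub curves lie closer together, with medians of 1439 and 1355 bp, and the RYBP medians are 1834 and 1621 bp.

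In the knockout the widest domain was 26490 bp (52228286 to 52254775, over Hoxa10 and Hoxa11), then 21706 bp (84574336 to 84596041) at Cyp26b1, whose enzyme degrades retinoic acid, and the sixth was 11683 bp at Plekhg6. In the wild type the widest was 33520 bp (52221852 to 52255371, over Hoxa9 to Hoxa11), and the one at Cyp26b1 was 17715 bp. At Gata2 the domain was 16679 bp in the knockout and 16871 bp in the wild type, and at Evx1, a homeobox gene beside the Hoxa cluster, it was 14440 bp and 18566 bp. A wild-type domain of 16309 bp inside Tet3, the gene for an enzyme that oxidises methylcytosine, was covered over 12202 bp in the knockout. Across the Hoxa cluster and Evx1, a span of 163 kb, knockout peaks covered 127 kb in 23 peaks, wild-type peaks 121 kb in 19 peaks and RYBP peaks 74.4 kb in 23 peaks. The widest RYBP peaks, 8345 bp at Gata2 and 8101 bp at Cyp26b1, lay inside these domains.

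Large single-genotype peaks were few. In the knockout the widest was 5691 bp (38633573 to 38639263) over the start of Klrg2, a lectin-like receptor gene, with 2903 bp of RYBP under it. The next were 4216 bp at the end of Dysf, 3806 bp lying 6043 bp from Klrg2, and 3683 bp overlapping both Loxl3 and Htra2. In the wild type the widest was 6214 bp (72238379 to 72244592) beside Atoh8, which encodes a basic helix-loop-helix factor, and an adjoining peak of 2897 bp reached the gene. The second was 4192 bp (122621680 to 122625871), 552 bp from Dppa3, an early embryo gene known as Stella.

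A gene counted as marked if any peak reached within 2 kb of its start or end, which gives at most 8000 bp of window per gene. On that rule 296 of 1126 protein-coding genes of chromosome 6 were marked in the knockout, 26.3%, where 19.9% of genes over the genome were, and 281 in the wild type, 24.96%, where 24.3% were. Of the 1126 genes, 59 were marked in the knockout alone, 5.24% (4.08% to 6.70%), where 2.79% of genes over the genome were. The wild type alone had 44, 3.91% (2.92% to 5.21%), where the genome had 7.16%. Both genotypes had 237, 21.0% (18.8% to 23.5%), where the genome had 17.1%. Of the 281 genes marked in the wild type, 84.3% (79.6% to 88.1%) were also marked in the knockout, against 69.8% (68.5% to 71.0%) on the other chromosomes. A gene marked in both genotypes need not have a shared peak, and at Lep, Met and Pparg the peaks of the genotypes did not overlap. Most calls in 1 genotype rested on short peaks: the median covered length was 1139 bp for genes marked in the knockout alone and 1148 bp for those in the wild type alone. For genes marked in both, the medians were 3038 bp in the knockout and 2558 bp in the wild type. The shortest calls were single edges of peaks, with 11 bp at Gkn3 in the knockout and 9 bp at Scrn1 in the wild type.

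By position, 5 of the 15 windows had 0 of the 44 wild-type-alone genes: those from 0 to 10, 10 to 20, 100 to 110, 130 to 140 and 140 to 150 Mb. Together they held 17 of the 59 knockout-alone genes, with 1 in each of the first 2 and 3, 6 and 6 in the others, among 253 genes. These windows were grouped after their counts had been seen. The other 10 windows held 42 knockout-alone and 44 wild-type-alone genes. From 80 to 90 Mb there were 11 genes in the knockout alone and 5 in the wild type alone, and from 110 to 120 Mb the order was the other way, with 2 and 9, although the covered length there was 1.64 times that of the wild type. Runs of at least 3 neighbouring genes of 1 kind were rare outside the shared class: 1 in the knockout alone (Trh, Prickle2 and Adamts9), 1 in the wild type alone (Scrn1, Fkbp14 and Plekha8) and 23 among genes marked in both. Fkbp14 and Plekha8 shared 1 wild-type peak of 981 bp, and the longest shared run was the 12 genes of the Hoxa cluster with Evx1.

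**Figure D4:**
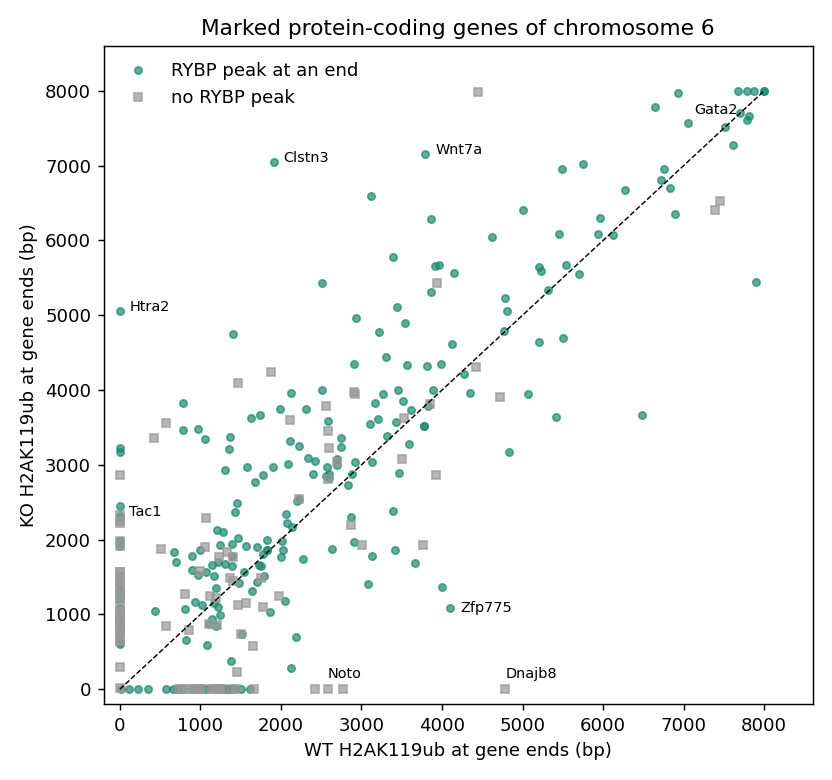
H2AK119ub covered length in bp within 2 kb of gene ends in the wild type (x axis) and in the knockout (y axis), 1 point for each of the 340 marked protein-coding genes of chromosome 6, with RYBP at an end (green circles) or without (grey squares). The dashed line marks equal length. Genes in the knockout alone lie on the left edge up to 5053 bp (Htra2), those in the wild type alone on the lower edge up to 4786 bp (Dnajb8), and 154 of the 237 shared genes lie above the line.

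Of the knockout-alone genes, Htra2 had the longest cover (gene ID 64704, 83051266 to 83054571), which encodes a mitochondrial protease: 5053 bp in the knockout and 0 bp in the wild type. Its neighbour Aup1, a gene of lipid droplet and endoplasmic reticulum turnover, had 3168 bp, and the peaks of 2157 and 827 bp were common to both genes. The peak of 2157 bp and another at Htra2, of 3683 bp, also reached the windows of Loxl3, which was marked in both genotypes. Which gene these peaks belong to cannot be told. Among the other knockout-alone genes were Tac1 and Trh, which encode secreted peptides, a kind of gene that was not counted as a group. Tac1 had 2314 bp in a peak of 867 bp over its start and one of 1635 bp inside the gene. Trh, the gene for thyrotropin-releasing hormone, had 2228 bp in 1 peak. Sh2d6 had 3225 bp, Vwf, which encodes the von Willebrand clotting factor, 2864 bp, Klrg2 2448 bp, Sspn, a muscle membrane gene, 2323 bp, Pde3a, a cyclic nucleotide phosphodiesterase gene, 2307 bp, and Mindy4 2248 bp. Each of these had 0 bp within 2 kb in the wild type. A wild-type peak nevertheless touched the outer part of a knockout peak at Vwf over 855 bp and at Pde3a over 109 bp, beyond the windows. Vwf also held, further inside, a wild-type peak of 2780 bp (125603100 to 125605879) that no knockout peak touched. RYBP was present in wild-type cells at 22 of the 59, 37.3% (26.1% to 50.0%), close to the 36.7% of all genes of the chromosome. These included Htra2, Tac1, Klrg2 and Pde3a, and RYBP had no peak at Trh, Vwf, Sspn or Mindy4.

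Of the wild-type-alone genes, Dnajb8, which encodes a chaperone of the testis, led with 0 bp in the knockout and 4786 bp in the wild type. The wild-type peaks there, of 3881, 1912 and 7645 bp, ran from 88218932 to 88232572, while knockout peaks of 1760 and 9137 bp flanked that stretch and met its outer peaks over 936 and 650 bp. Lhfpl4, which encodes a partner of GABA receptors, had 2769 bp in the wild type, Noto 2584 bp and Acrbp, a gene of the sperm acrosome, 2419 bp. Then came Tmem140 with 1664 bp, St3gal5, the gene for ganglioside GM3 synthase, with 1621 bp, Gstk1 with 1500 bp, Dppa3 with 1448 bp, Anxa4 with 1434 bp and Ttll3 with 1386 bp. All 10 had 0 bp in the knockout, and for the 9 other than Dnajb8 no knockout peak touched their peaks. RYBP was present at 24 of the 44, 54.5% (40.1% to 68.3%), among them St3gal5, Gstk1 and Anxa4. The rule looks at the outer ends of a gene: 2 of the 59 knockout-alone genes had a wild-type peak, and 4 of these 44 a knockout peak, at a start site further inside.

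Genes marked in both genotypes were mostly covered over more sequence in the knockout. Of 237, 154 had a longer cover in the knockout, 65.0% (58.7% to 70.8%), where 24.2% of such genes over the genome did, and the median ratio was 1.10 with quartiles of 0.93 and 1.44. The ratio was 2 or more at 23 genes, 9.70% of them against 3.27% over the genome, and 0.5 or less at 11 genes, 4.64% against 21.4%. The highest ratios were at Cpa1, the gene for pancreatic carboxypeptidase A1 (3358 bp in the knockout and 419 bp in the wild type), and Crhr2, a corticotropin-releasing hormone receptor gene (3564 and 576 bp). Mgll had 3826 and 788 bp, Aebp2, which encodes an accessory subunit of Polycomb repressive complex 2, 3460 and 789 bp, Clstn3, a synaptic adhesion gene, 7045 and 1909 bp, and Tacr1, the receptor gene for substance P, 1874 and 509 bp. At Clstn3 the knockout was longer at both ends: 3695 bp against 0 bp in the wild type at the end without RYBP, and 3350 bp against 1909 bp at the end with it. The lowest ratios were at Sfxn5 (285 bp in the knockout and 2125 bp in the wild type), Uroc1, the urocanase gene (235 and 1461 bp), Zfp775 (1091 and 4105 bp), Mturn (372 and 1379 bp), Dgki, a diacylglycerol kinase gene (697 and 2187 bp), and Ankrd53 (1372 and 3996 bp).

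The Hoxa genes and Evx1 were alike in length between genotypes. All 12 were marked in both and carried RYBP, and their median ratio was 1.00. Summed gene by gene, the cover was 78.9 kb in the knockout and 79.1 kb in the wild type. Windows of some neighbouring genes overlap, so these sums count some sequence more than once. Hoxa10 was covered over its full 8000 bp in both, and Hoxa3 over 8000 bp in the knockout and 7788 bp in the wild type, so the windows leave little room for a difference. Of 28 other developmental transcription factor genes, 17 were marked in both with a median ratio of 1.03, 2 in the knockout alone and 2 in the wild type alone, where 21.0%, 5.24% and 3.91% of all genes of the chromosome were. Counts of 2 are too few to be set apart from those shares. Pax4, a regulator of pancreatic endocrine cells (645 bp), and Neurod6, a neuronal factor (1202 bp), were those of the knockout. Foxp1 (1039 bp) and Mitf, the regulator of pigment cells (657 bp), were those of the wild type and both carried RYBP, but Foxp1 also had 2007 bp of the mark in the knockout at a start site further inside. Atoh1, a regulator of hair cells and cerebellar granule cells, had 6075 bp in the knockout and 6121 bp in the wild type, Emx1, a cortical regulator, 7966 and 6926 bp, and Dlx5, a craniofacial and limb regulator, 6528 and 7449 bp.

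Of 33 genes of signalling and of the cell cycle, 23 were marked in both, where 21.0% of all genes of the chromosome were. Their median ratio was 1.09, close to the 1.10 of all shared genes of the chromosome. Of the 23, 17 were longer in the knockout, where 65.0% of all shared genes were. At their ends, Vwf was marked in the knockout alone and 0 genes were in the wild type alone. Over all genes of the chromosome these shares were 5.24% and 3.91%, and counts so small cannot be set apart from them. Wnt7a, a Wnt ligand gene, had 7149 bp in the knockout and 3795 bp in the wild type, Cyp26b1 7989 and 4441 bp, Oxtr, the oxytocin receptor gene, 5657 and 3914 bp, and Ccnd2, a cyclin gene, 5331 and 5316 bp. Fgf6, which encodes a growth factor of muscle, went the other way with 6410 bp in the knockout and 7390 bp in the wild type. Of 24 genes for ion channels, transporters and transmitter receptors, 15 were marked in both with a median ratio of 1.17. A further 4 were marked in the wild type alone, among them Cacna2d4 (1242 bp), Clcn1 (839 bp) and Chrm2 (774 bp). Their difference from the share of 3.91% was not tested. Kcna6, a potassium channel gene, had 6404 bp in the knockout and 5005 bp in the wild type.

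Of all genes of the chromosome, 69.8% were unmarked, and the smaller lists are read beside that share. Of 7 listed genes for Polycomb subunits and related chromatin proteins, a list that does not hold Aebp2, 5 were unmarked, and Rybp and Pcgf1, whose products are both subunits of variant PRC1, carried the mark in both genotypes. Rybp had 1673 bp at its ends in the knockout and 1300 bp in the wild type, and Pcgf1 had 1837 and 676 bp. At Pcgf1 the knockout peak (83076324 to 83078160) met the RYBP peak at the lower coordinate of the gene, and the wild-type peak (83082180 to 83086809) reached its windows from the side of Lbx2. Ezh2, the enzyme of Polycomb repressive complex 2, had RYBP over 2543 bp and no mark. Of 6 genes of pluripotency, Dppa3 was the one marked, in the wild type alone, and Nanog had no peak in any list. Of 14 genes of imprinted regions, 5 were marked, in both genotypes, among them Peg10 (1865 bp in the knockout and 1827 bp in the wild type) and Mest (3230 and 2595 bp). Of 29 housekeeping genes, 25 were unmarked, with Gapdh, Tpi1 and Rpl32 among them. Cops7a (3945 bp in the knockout and 3272 bp in the wild type) and Atp6v0e2 (1932 and 3006 bp) were marked in both genotypes. Copg1 (957 bp) and Ruvbl1 (976 bp) were marked in the knockout alone, where 5.24% of all genes of the chromosome were. So small a count cannot be set apart from that share. Of 195 genes of tandem families, such as bitter taste receptors, vomeronasal receptors, natural killer cell receptors and secreted proteases, 191 were unmarked, and the 4 exceptions were Klrg2, Clec2l, Gimap1 and Clec4f.

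The classes of gene differed in how often they carried RYBP. It was present at 187 of 237 genes marked in both genotypes, 78.9% (73.3% to 83.6%), at 37.3% of those in the knockout alone, at 54.5% of those in the wild type alone and at 180 of 786 unmarked genes, 22.9% (20.1% to 26.0%), where 34.2% of genes over the genome carried it. On the other chromosomes, RYBP was at 74.1% of genes marked in both, 51.5% of wild-type-alone genes and 22.3% of unmarked genes. It was at 54.2% (50.0% to 58.4%) of knockout-alone genes there, and the difference from chromosome 6 was not tested. Peaks gave the same order. RYBP lay under 28.9% (26.0% to 32.1%) of knockout peaks shared with the wild type. It lay under 6.81% (5.35% to 8.64%) of those found in the knockout alone. The rest of the genome had 29.4% and 8.83%. Peaks found in the knockout alone were narrower, and a narrower peak meets another less easily. Of the 568 RYBP peaks on chromosome 6, 265 overlapped the mark in the knockout, 46.7%, and 256 in the wild type, 45.1%. The median RYBP peak was 2298.5 bp wide where the mark was present in both genotypes and 1618 bp where it was in neither. A wider peak meets another more easily, so these widths are in part set by the overlap rule. The genes with the most RYBP and no mark were Bhlhe40, a circadian and stress factor gene (4704 bp), Fam136a (4305 bp), Bpgm, a red cell enzyme gene (3354 bp), Cdkn1b, the gene for the cell cycle inhibitor p27 (3096 bp), Hipk2, a kinase gene (2960 bp), and Mat2a, which encodes the enzyme that makes S-adenosylmethionine (2886 bp).

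CpG content of the promoters followed RYBP rather than genotype. The table of promoter sequences held 1164 promoters for 952 of the 1126 genes, with a median of 11 CpG per 300 bp. Promoters under a knockout peak alone had a median of 22 CpG where RYBP was also over them (n = 37) and 7 where it was not (n = 29). Promoters under a wild-type peak alone had 23 with RYBP (n = 13) and 7 without (n = 15), and those under peaks of both genotypes had 21 (n = 75) and 8 (n = 33). Unmarked promoters had 24 CpG with RYBP (n = 250) and 4 without (n = 712). The promoters printed above show both kinds, with 22 and 32 CpG at Tac1, Mgll and Gata2, which carry RYBP, and 6 at Noto, which does not. Some genes have several promoters in these counts.

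**Figure D5:**
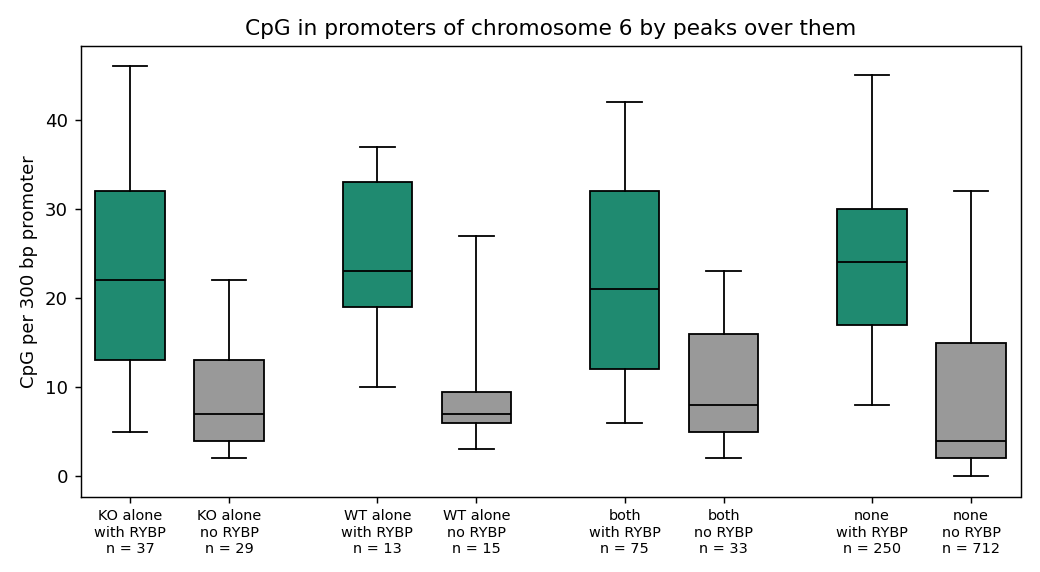
CpG dinucleotides per 300 bp promoter of chromosome 6, by which H2AK119ub peaks lie over the promoter and whether RYBP does (green) or not (grey). Boxes give quartiles and the median, whiskers the 5th and 95th percentiles, and n the promoters. Medians lie between 21 and 24 with RYBP and between 4 and 8 without it.

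Short motifs were counted on both strands of the same promoters. The letters TCCCGC, the core of sites for E2F factors, occurred in 152 of 375 promoters with RYBP over them, 40.5% (35.7% to 45.6%), in 13.9% (11.7% to 16.5%) of those without, and in 20.1% of all promoters of the genome. CACGTG, the E-box that MAX and its partners bind, occurred in 9.07% (6.56% to 12.4%) with RYBP, 3.17% (2.16% to 4.64%) without and 7.20% over the genome. TATAAA, the TATA box, occurred in 7.47% (5.22% to 10.6%), 19.4% (16.8% to 22.3%) and 13.7%. Motifs rich in C and G are more frequent in CpG-rich sequence, and the counts were not adjusted for it. By the mark, TCCCGC occurred in 19 of 66 promoters under a knockout peak alone and in 8 of 28 under a wild-type peak alone, 28.8% (19.3% to 40.6%) and 28.6% (15.3% to 47.1%). It occurred in 45 of 108 under peaks of both genotypes, 41.7% (32.8% to 51.1%), and in 190 of 962 unmarked promoters, 19.8% (17.4% to 22.4%).

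MicroRNA genes gave a further view of positions outside protein-coding genes. Of 39 hairpins annotated on chromosome 6, 4 had the mark within 2 kb in both genotypes, 1 in the knockout alone and 4 in the wild type alone, 10.3%, 2.56% and 10.3%, where 11.2%, 2.19% and 6.87% of hairpins over the genome did. The wild type alone included Mir96 (30169446 to 30169551) and Mir183 (30169668 to 30169737), sensory microRNAs that share a transcript with Mir182, under the same 2782 bp peak from 30168114 to 30170895. Mir182 had no peak within 2 kb, but that peak began 2122 bp from its end, so the window alone separates it from its neighbours. Mir196b, inside the Hoxa cluster, and Mir129-1 were marked in both genotypes and carried RYBP, with 4077 bp in the knockout and 4085 bp in the wild type at Mir196b, and 2277 and 2991 bp at Mir129-1. The mature strands of these microRNAs are printed 5′ to 3′ from RefSeq, with the seed, bases 2 to 8, in capitals. The 4 seeds differ from each other, so the marked hairpins shown belong to different seed families.
miR-96-5p: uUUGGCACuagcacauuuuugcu
miR-183-5p: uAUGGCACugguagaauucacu
miR-196b-5p: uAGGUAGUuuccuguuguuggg
miR-129-5p: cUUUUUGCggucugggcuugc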

How the data were processed

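The 3 ChIP libraries were H2AK119ub in DDX5 knockout cells, H2AK119ub in wild-type cells and RYBP in wild-type cells. Bowtie2 2.2.5, MACS 1.4 and the build mm10 are named, per the submitters' processing notes. What each did, how peaks were thresholded and whether inputs were used is not given in the sources used here. Peak positions are as deposited by the authors, in 1 list per library, and the deposited score is 0 for every peak. A library of lower depth or enrichment can give fewer and narrower peaks.

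Positions were counted from 1. Overlap meant at least 1 bp. Shares given for the genome include chromosome 6. Genes and promoters came from RefSeq tables of GRCm38.p6 (21627 protein-coding genes on chromosomes 1 to 19 and X). Start sites were known for 952 of the 1126 genes of chromosome 6. The genes named were those with the most covered length in each class, or the most extreme ratios where over 1 kb was covered, leaving out predicted genes, plus members of 9 gene lists. The chromosome, rule and lists were chosen with earlier results of these data known, and the bins of 0.5 Mb, the stretches given, the grouping of windows and the microRNAs shown after values were seen. Wilson intervals at 95% came from scipy 1.17.1 in Python 3.11.15, with numpy 2.4.6, pandas 2.3.3 and matplotlib 3.10.9. Interval counting was tested on simulated data, and all 2400 covered lengths equalled a count base by base. The alternatives tried were a minimum width, merging, another overlap rule, other windows and equal numbers of peaks.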

Additional observations from a re-analysis of the deposited data

How the results depend on the processing

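Of 78 values recomputed under other settings, 58 stayed within their counting interval or, for counts, within 1.5 times, and 20 moved, 2 of them numbers of peaks after merging. The ratio of covered length on chromosome 6 lay between 1.30 and 1.41 under every setting run, and was 1.38 without the Hoxa cluster. Genes marked in the knockout alone numbered 44 to 64, in the wild type alone 33 to 45 and in both 171 to 272, the lowest of each with start sites only, where 952 genes could be tested. With peaks of at least 1 kb, the median width was 1646 bp in the knockout and 1599.5 bp in the wild type, 51.2% of knockout peaks overlapped a wild-type peak, and RYBP overlapped 20.1% of knockout and 27.5% of wild-type peaks. The highest ratio of a 10 Mb window was then 1.68, because the window from 100 to 110 Mb kept 19 wild-type peaks, under the minimum of 20. Its own ratio with such peaks was 3.36. The lowest window, at 0.98, was at 1.02 with such peaks, so its side of 1 is not settled. With peaks within 2 kb merged, the medians were 1703 and 1643 bp, 45.7% of knockout peaks overlapped a wild-type peak, 64.6% of wild-type peaks overlapped a knockout peak, and RYBP overlapped 21.3% of knockout and 27.8% of wild-type peaks. When 50% of a peak had to be overlapped, the shares were 40.4% and 60.9% between genotypes, 9.46% of knockout and 11.8% of wild-type peaks for RYBP, and 36.4% of RYBP peaks with the mark in the knockout and 31.9% in the wild type. Unknown depth limits every comparison of widths and covered lengths. No paired analysis was possible because each group has 1 library and no result comes from a test.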
